A study of Mus musculus with 6 samples.

Results

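The genes described here encode ligands of NKG2D and the checkpoint ligand PD-L1 in 4T1 cells, a BALB/c mouse mammary carcinoma line grown in culture. They were taken from the deposited expression values by symbol: Ulbp1, Cd274 and every symbol that starts with Raet1 or H60. This gave 4 of the 13405 listed genes, namely Ulbp1, H60b, H60c and Cd274. Ulbp1 was chosen by its own values, which were evenly higher in the ATM knockout libraries, so the knockout comparison is given for these genes as a description and without a test. RNA was sequenced from 3 libraries of vector control cells and 3 libraries of ATM KO cells, cells in which the kinase gene Atm was knocked out, called vector controls 1 to 3 and knockouts 1 to 3 below by their numbers in the titles. The labels give neither the knockout method nor whether a group is 1 clone, a pool of clones or separate cultures, so the spread between libraries may be technical. The title of the series ties loss of ATM to leakage of mitochondrial DNA, cGAS-STING signalling and response to immunotherapy, and ligands that immune cells read on the tumour cell belong to that question.

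NKG2D is an activating receptor on natural killer cells and on some T cells. Its ligands are relatives of MHC class I that healthy cells carry at low levels and stressed, infected or transformed cells carry at higher levels, and DNA damage signalling through ATM and ATR is one known route of induction. In the mouse they form the RAE-1 family (Raet1 genes), the H60 family and MULT1, which is the product of Ulbp1. PD-L1, the product of Cd274, binds PD-1 on T cells and restrains them, and interferon-gamma is its classical inducer, acting through JAK1, JAK2 and IRF1. Strains differ in their ligand genes: BALB/c mice carry H60a and Raet1 alleles that the C57BL/6 reference genome lacks under those names.

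The 3 NKG2D ligand genes lay on chromosome 10 and Cd274 on chromosome 19 (GENCODE M21, GRCm38). Ulbp1 (ENSMUSG00000079685) spans 7440362 to 7473638 on the minus strand, H60c (ENSMUSG00000091618) 3256208 to 3267771 on the minus strand, H60b (ENSMUSG00000075297) 22158586 to 22288849 on the plus strand and Cd274 (ENSMUSG00000016496) 29367455 to 29388095 on the plus strand. Raet1d and Raet1e, which that annotation also holds, were not among the listed genes and were not analysed here. H60b shares 133 exonic bases (11.0% of its 1213) with Raet1e on the same strand, and Cd274 shares 511 (14.1% of 3622) with an antisense gene, so reads from those stretches could have been dropped or assigned to either gene. Where reads from BALB/c-specific ligand alleles were placed was not tested.

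The start regions of the genes whose ATM KO means were higher are shown because Cd274 starts only 65 bases from a gene on the opposite strand, Plgrkt, which encodes a plasminogen receptor. For each gene, the 250 bases before the RefSeq start (GRCm38.p6) were taken. The stretches below are the run nearest the start that lies in no annotated exon, on the gene's strand, 5′ to 3′. They cover chr10:7473639-7473727 on the minus strand for Ulbp1 and chr19:29367391-29367437 on the plus strand for Cd274. In Ulbp1 the 161 bases between this run and the RefSeq start lie in exons and are not shown. Capitals mark a CCAAT box in Ulbp1 and an Sp1 box in Cd274.
Ulbp1: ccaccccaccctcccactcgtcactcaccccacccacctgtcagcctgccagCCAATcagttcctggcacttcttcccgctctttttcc
Cd274: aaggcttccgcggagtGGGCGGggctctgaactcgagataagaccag
The whole 250 bases were searched on both strands for 6 motifs. CCAAT was found 1 time in Ulbp1 and stands in 33.8% of 32851 such regions of all genes, and the Sp1 box GGGCGG was found 1 time in Cd274 and stands in 32.7%. The interferon regulatory factor element, searched as GAAA, any 2 bases and GAAA again (2.98% of all regions), the gamma-activated site TTCNNNGAA (7.02%), the E2F motif TTTNNCGC (4.28%) and the heat shock element GAANNTTC (6.69%) had 0 matches in either window, which says only that these letters are not there. The motifs do not overlap in these windows.

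The listed genes took 22494919 to 32341508 reads per library, and values are normalized read counts. Vector control 1 was unlike both other controls: log2 values correlated across genes at 0.914 between vector control 1 and either of the other controls, at 0.997 between vector controls 2 and 3, and at 0.930 to 0.970 among knockout libraries. Atm mRNA stood at 1703 ± 243 normalized counts in the control group and 1923 ± 316 in the knockout group (SD, n = 3 each), so its level does not check the labels. Over the 12149 tested genes, those with a mean of at least 10, limma called 0 at an adjusted p under 0.05 (0%) and edgeR called 0 (0%), with 505 and 522 genes at an unadjusted p under 0.05, and DESeq2 called 84 (0.691%). The median log2 difference of all tested genes, ATM KO minus vector control, was -0.01.

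Ulbp1, which encodes the high-affinity NKG2D ligand MULT1, was at about 2.13 times its control level in knockout cells. Its normalized read counts were 244, 280 and 297 for vector controls 1 to 3 and 543, 636 and 567 for knockouts 1 to 3. All 3 knockout libraries lay above all 3 controls, and the lowest ATM KO value was 1.83 times the highest control value. Group means were 274 ± 27.0 and 582 ± 48.0 (SD, n = 3 each), a difference of 1.09 on the log2(value + 1) scale (SE 0.19). Groups without overlap and higher in ATM KO were met in 5.70% of all tested genes, and Ulbp1 was chosen for this pattern, so nothing is read from it.

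The values of Ulbp1 varied little within a group. Because Ulbp1 was chosen for an even rise, this follows in part from the choice, as do the range and ranks below. The coefficient of variation was 9.88% over the controls and 8.24% over the knockout libraries, while the 251 to 635 reads behind each value give a counting error of 3.97% to 6.31%. Vector control 1, which stood apart across all genes, held the lowest Ulbp1 value but within 1.22 times of the highest control. With any 1 library left out, the log2 difference lay between 1.01 (without vector control 1) and 1.15 (without vector control 3). By log2 difference, Ulbp1 ranked 356 of 12149 tested genes from the top, and 167 among those higher without overlap.

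H60b, a class I-like NKG2D ligand of the H60 family, went the other way in its group means but not library by library. Its normalized read counts were 474, 141 and 169 for vector controls 1 to 3 and 178, 140 and 55.0 for knockouts 1 to 3. Vector control 1 was high and knockout 3 low, while the other 4 libraries lay between 140 and 178 in both groups. The means were 261 ± 185 and 124 ± 63.0 (SD, n = 3 each), a log2 difference of -1.01 (SE 0.63). It was -0.47 without vector control 1 and -0.51 without knockout 3.

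H60c, the third ligand gene listed, had few reads and the same order at its extremes. Its normalized read counts were 54.5, 21.3 and 9.46 for vector controls 1 to 3 and 29.1, 12.7 and 3.84 for knockouts 1 to 3. Vector control 1 was highest and knockout 3 lowest, as for H60b, and the groups overlapped. The value of knockout 3 rests on 3 reads, with an exact Poisson interval (95%, counting error only) of 0.792 to 11.2 normalized counts. The log2 difference of -0.90 (SE 0.89) was -0.28 without vector control 1 and -0.21 without knockout 3, and -1.53 without knockout 1.

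**Figure D1:**
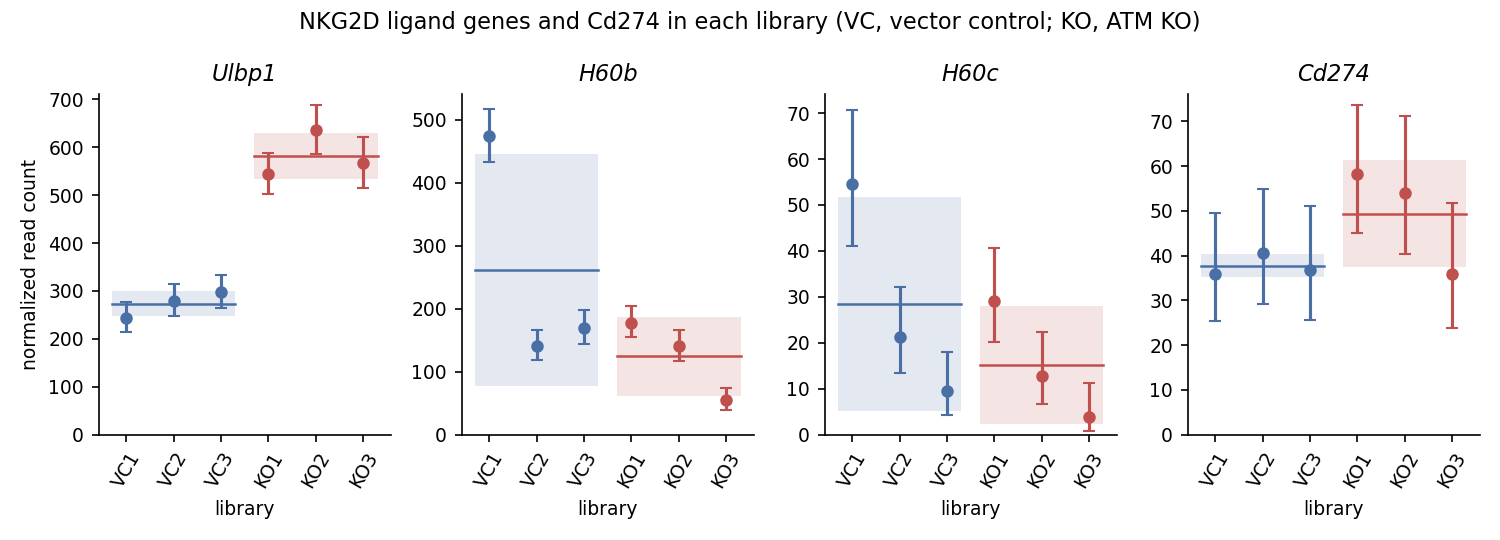
Normalized read counts (y axis, separate scale per gene) of Ulbp1, H60b, H60c and Cd274 in the 3 vector control (VC, blue) and 3 ATM KO (KO, red) libraries. Points carry exact Poisson intervals (95%) of the reads behind them, and lines and shading give group mean and SD. Ulbp1 separates the groups (highest control 297, lowest knockout 543), while the other genes overlap.

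Per length of exon, H60b and not Ulbp1 was the most abundant of the listed ligand mRNAs in 5 of 6 libraries. Whether reads of BALB/c-specific ligand alleles or of Raet1e were counted in H60b was not tested. Divided by the union of annotated exons (6726 bases for Ulbp1, 1213 for H60b and 2817 for H60c), H60b stood at 391, 116 and 139 normalized counts per kb for vector controls 1 to 3 and 147, 115 and 45.4 for knockouts 1 to 3. Ulbp1 stood at 36.3, 41.6 and 44.2 per kb among controls and at 80.8, 94.5 and 84.3 in knockout cells. H60b was thus 10.8, 2.80 and 3.15 times Ulbp1 for vector controls 1 to 3 and 1.82, 1.22 and 0.538 times for knockouts 1 to 3. In knockout 3 the order turned.

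Cd274 and H60c were the lowest per length. Cd274 stood at 10.4 ± 0.684 per kb in vector control and 13.6 ± 3.29 in knockout cells, and H60c at 10.1 ± 8.29 and 5.40 ± 4.55 (SD, n = 3 each). These 2 neighbours in the order did not differ beyond their spread in the controls. Ulbp1 lay above Cd274 in every library, by 3.65 to 8.52 times.

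The ligand mRNA summed per length overlapped between the groups, while its make-up differed. The sum over Ulbp1, H60b and H60c was 446, 166 and 187 per kb for vector controls 1 to 3 and 238, 214 and 131 for knockouts 1 to 3. The control mean of 266 lay above the knockout mean of 194 only through vector control 1, and without that library it was 176. Ulbp1 made up 8.14%, 25.1% and 23.6% of the sum among controls and 34.0%, 44.1% and 64.3% in knockout cells. The share was higher in each knockout library than in every control, and because it contains Ulbp1 this follows in part from how that gene was chosen. With the longest coding transcript in place of the exon union (5959 bases for Ulbp1 and 1080 for H60b), the shares were 8.21% to 25.3% and 34.2% to 64.5%. The Raet1 genes and H60a were not listed and have no value of their own in this sum.

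**Figure D2:**
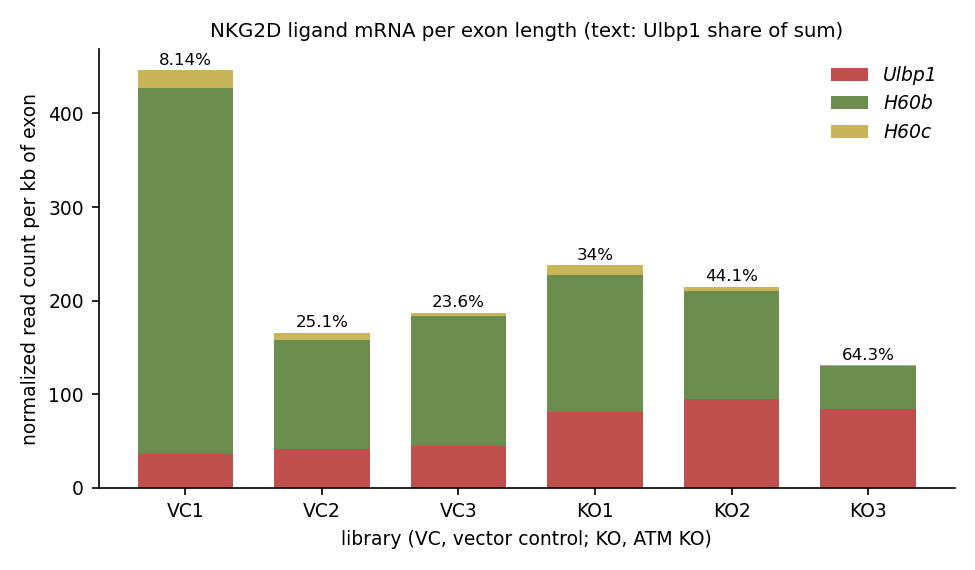
Normalized read counts per kb of annotated exon (y axis) of Ulbp1 (red), H60b (green) and H60c (yellow), stacked for each library (x axis). The percentage above a bar is the Ulbp1 share of the sum, which ran from 8.14% to 25.1% in vector control and from 34.0% to 64.3% in knockout libraries.

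Cd274 mRNA was low in all libraries and its groups overlapped. Its normalized read counts were 36.0, 40.6 and 36.8 for vector controls 1 to 3 and 58.2, 54.1 and 35.8 for knockouts 1 to 3. Knockouts 1 and 2 lay above every control, and knockout 3 lay below all of them. Means were 37.8 ± 2.48 and 49.4 ± 11.9 (SD, n = 3 each), a log2 difference of 0.35 (SE 0.34), where 89.0% of tested genes had a higher mean level. The difference was 0.56 without knockout 3 and 0.22 without knockout 1.

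Depth limits what can be said of Cd274. Each value rests on 28 to 68 reads, which alone gives a counting error of 12.1% to 18.9%, more than the 6.56% coefficient of variation over the controls. The exact Poisson intervals (95%) ran from 25.3 to 49.6 normalized counts in vector control 1 and from 45.2 to 73.8 in knockout 1. These 2 intervals overlap, which alone does not show that counting error covers the difference. Whether the difference of the means exceeds counting error and library spread was not tested.

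**Figure D3:**
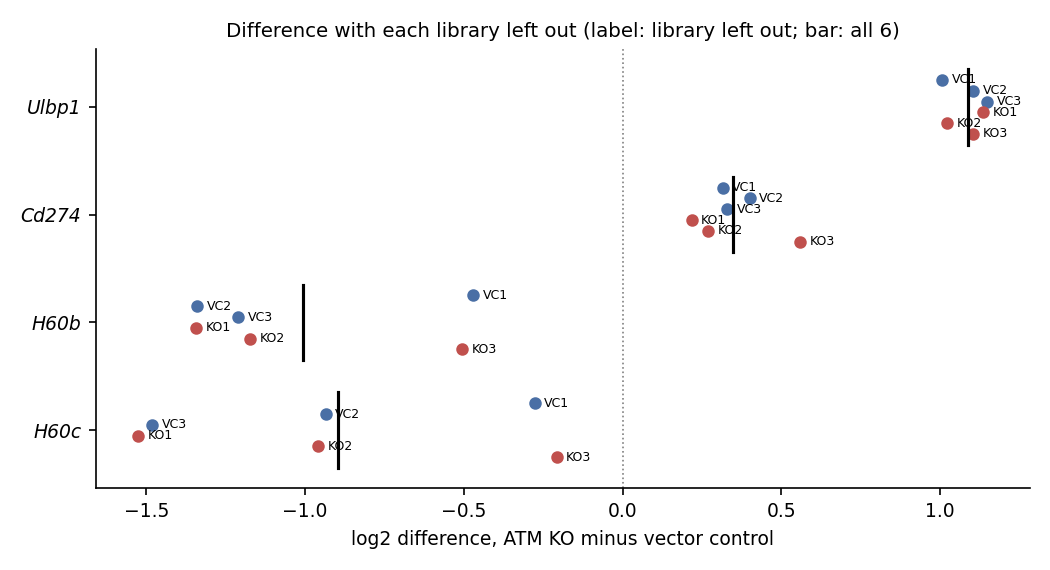
Log2 difference, ATM KO minus vector control (x axis), of each gene with 1 library left out (points, labelled with the library left out, blue for vector control and red for ATM KO) and with all 6 libraries (black bars). Ulbp1, chosen for its even rise, stays between 1.01 and 1.15. H60b and H60c move towards 0 without vector control 1 or knockout 3, to -0.47 and -0.51 for H60b.

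PD-L1 can also come from blood and stromal cells, so markers of other cell types were read in the same libraries. Of 12 haematopoietic markers only Cd68 and Csf1r were listed, and Ptprc, the pan-leukocyte marker, was not. Cd68 stood at 794 ± 429 in vector control and 432 ± 324 in knockout cells. Csf1r, the CSF1 receptor, stood at 331 ± 88.9 and 841 ± 357, with each knockout library above every control, beside 5.70% of all tested genes. The summed haematopoietic markers lay between 529 and 1467 among controls and between 702 and 1774 in knockout libraries. Among 5 endothelial markers only Cdh5 was listed, at 0 to 11.7. Fibroblast markers were represented by Pdgfra, Col1a1 and Col1a2 (3 of 6), and their sum lay between 146 and 547 among controls and between 344 and 754 in knockout cells. The part of these cells or of ectopic expression in the Cd274 values was not tested, and in bulk RNA fewer cells of a type and less RNA per cell cannot be told apart. All 7 tested epithelial markers of 4T1 cells had a log2 difference above 0, beside 48.6% of all tested genes. Their median was 0.36, and 0.20 without vector control 1, when 6 were above 0. Krt14, a basal keratin gene, stood at 496 ± 300.0 in vector control and 1968 ± 520 in knockout cells. Cldn4, a claudin gene, stood at 10485 ± 1414 and 19082 ± 6668. In these 2 of 7 each knockout library lay above every control, beside 5.70% of all tested genes. Cdh1 stood at 17326 ± 307 and 17682 ± 1016 and Krt18 at 31136 ± 7792 and 37491 ± 8248, while Krt5 was at 0 in all libraries. Limma, edgeR and DESeq2 called 0 of the tested markers. By limma, 1 of 2 haematopoietic, 0 of 2 fibroblast and 2 of 7 epithelial markers tested had an unadjusted p under 0.05. Over all 12149 tested genes it was 505.

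The NKG2D receptor complex itself, formed by the receptor Klrk1 and its adaptors Hcst and Tyrobp on lymphocytes, had 0 of 3 genes listed. Genes that regulate NKG2D ligand transcription showed no shared direction: of 13 tested, 7 had a log2 difference above 0 and 6 below it, the median was 0.04, and the groups were apart in 0 of them, against 11.2% of all tested genes. Of these 13, limma, edgeR and DESeq2 called 0, and 0 had an unadjusted p under 0.05 by limma. Without knockout 2 the median was -0.11 and 4 were above 0. Counts of genes above or below 0 go by the difference of log2 means, which can go against the plain means where 1 library is far from the rest. The p53 gene Trp53, counted above 0 at a log2 difference of 0.07, stood at 822 ± 508 and 791 ± 212, with 1408 in vector control 1 against 529 and 528 in the other controls. E2f1, whose family activates Raet1 transcription, stood at 2509 ± 511 and 2806 ± 696. The stress factor Atf4 stood at 5834 ± 2308 and 3848 ± 1148, and Sp1, Sp3 and the deacetylase gene Hdac3 had log2 differences of -0.10, 0.19 and 0.04.

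Among genes that act on NKG2D ligand protein, Mmp9 had the largest difference. This list holds proteases that shed ligands from the cell surface and the MARCH ubiquitin ligases that remove MULT1 from it. It also holds Pdia6 (9045 ± 1983 in vector control and 8534 ± 164 in knockout cells) and Timp3, which are neither. Of its 10 genes 8 were tested, 6 with a log2 difference above 0 and 2, Adam9 and Pdia6, below it. Their median of 0.15 moved to 0.06 when vector control 1 was left out and to 0.22 or 0.23 when vector control 2, vector control 3 or knockout 2 was. Mmp9, a secreted gelatinase, stood at 1042, 10568 and 10622 for vector controls 1 to 3 and 19326, 16878 and 27739 for knockouts 1 to 3. The low value is again vector control 1, and the groups did not overlap. The log2 difference of Mmp9 was 2.09 (SE 0.90), and 0.98 without vector control 1. Adam9, a membrane protease, was the reverse case at 4452 ± 441 and 3701 ± 204. These cases, 1 higher and 1 lower of 8 genes, stand beside 5.70% and 5.48% of all tested genes. The main sheddases Adam10 and Adam17 overlapped, with log2 differences of 0.17 (SE 0.16) and 0.12 (SE 0.17). March9, a ligase of MULT1, stood at 1049 ± 423 and 1006 ± 97.1, and its relative March4 at 18.0 ± 7.43 and 27.7 ± 15.2. Of these 8 genes, limma, edgeR and DESeq2 called 0, and 0 had an unadjusted p under 0.05 by limma.

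Among the genes of PD-L1 induction, vector control 1 was the lowest library for 11 of the 18 tested and reported. This was not particular to them. Vector control 1 was also lowest for 7 of 8 NKG2D ligand turnover genes, 6 of 8 checkpoint ligands and 5 of 6 inhibitory ligands. The count was 3 of 13 for NKG2D ligand induction and 6 of 16 for PD-L1 protein stability. The share over all tested genes was not taken. Of the 18 PD-L1 induction genes, 14 had a log2 difference above 0 and 4 below it, with a median of 0.13. The median was -0.0018 without vector control 1, when 9 were above 0, 0.04 without knockout 3, and 0.30 to 0.31 without vector control 2, vector control 3 or knockout 2. Irf1, the transcription factor that acts on Cd274 after interferon, stood at 517, 1614 and 1710 for vector controls 1 to 3 and 2876, 1984 and 1918 for knockouts 1 to 3. Ifnar2, a chain of the type I interferon receptor, stood at 642 ± 38.0 and 884 ± 104. These 2 of 18 were without overlap and higher in knockout cells, beside 5.70% of all tested genes. Jak2 stood at 1603, 7510 and 7323 for vector controls 1 to 3 and 5460, 3182 and 7714 for knockouts 1 to 3, an order that Cd274 did not share. None of the 18 (0) was called by limma, edgeR or DESeq2. By limma, 1 of the 18 had an unadjusted p under 0.05, beside 505 of all 12149 tested genes.

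**Figure D4:**
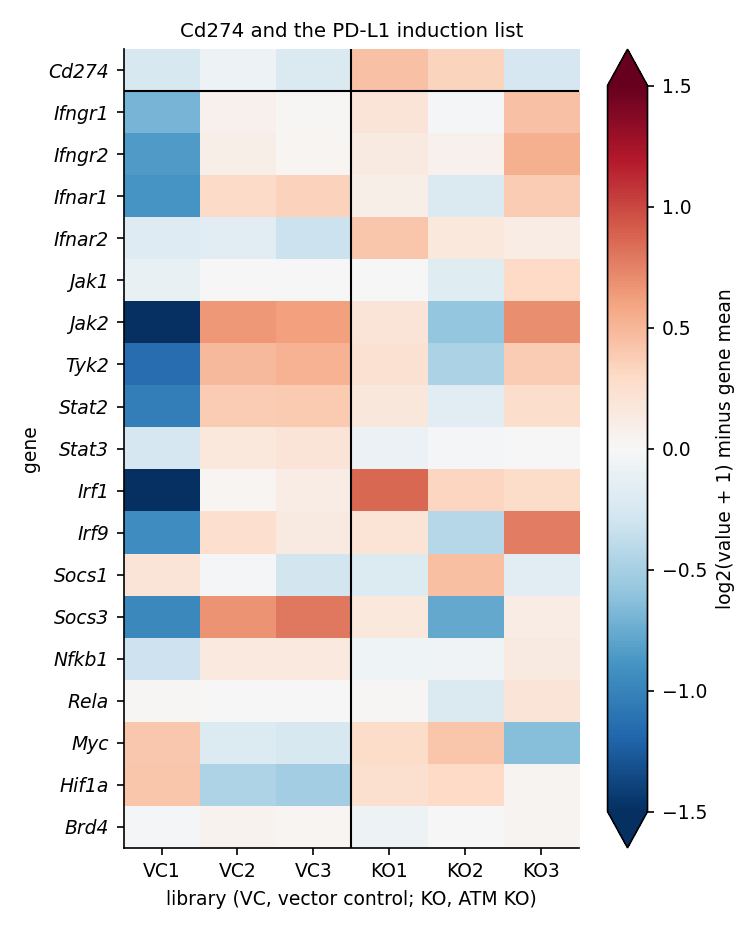
Colours give log2(value + 1) minus the mean of each gene over the 6 libraries (red high, blue low, limits at -1.5 and 1.5) for Cd274 (top row) and the 18 genes of the PD-L1 induction list, with libraries on the x axis. Vector control 1 is the lowest library for 11 of the 18, among them Jak2 at 1603 and Irf1 at 517, while Cd274 is high in knockouts 1 and 2. Being lowest in vector control 1 is not particular to this list (7 of 8 NKG2D ligand turnover genes, 3 of 13 NKG2D ligand induction genes).

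Among 16 genes that act on the PD-L1 protein, 11 had a log2 difference below 0 and 5 above it, with a median of -0.09. The split was not stable: without vector control 2 it was 8 and 8 (median -0.06), without knockout 1 or knockout 3 it was 12 and 4, and the median was -0.18 without vector control 1 and -0.05 without knockout 2. Stt3a and Stt3b, the catalytic subunits of the oligosaccharyltransferase that N-glycosylates PD-L1, were lower in each knockout library than in every control. Stt3a stood at 16320 ± 562 and 12475 ± 3140, with 8857 in knockout 1 against 14500 and 14067 in knockouts 2 and 3. Stt3b stood at 9128 ± 140 and 7626 ± 31.7, a log2 difference of -0.26 (SE 0.11). These 2 of 16 stand beside 5.48% of all tested genes. Cmtm4, which like its relative Cmtm6 protects PD-L1 from degradation, stood at 11625 ± 968 and 10268 ± 1609, and the palmitoyltransferase gene Zdhhc3 at 7401 ± 3890 and 6646 ± 1465. The 3 tools called 0 of these genes, and 0 had an unadjusted p under 0.05 by limma.

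Among other checkpoint ligands, 3 were higher in all knockout libraries. Of 17 genes in the list 8 were tested, 6 with a log2 difference above 0. Their median was 0.41, which was 0.21 without vector control 1, 0.72 without vector control 2, 0.73 without vector control 3 and 0.65 without knockout 2. Cd276, the B7 relative B7-H3, stood at 3584, 3512 and 3381 among controls and 3953, 4015 and 5452 for knockouts 1 to 3. Lgals9, which encodes the TIM-3 ligand galectin-9, stood at 158 ± 33.5 and 261 ± 12.7 (log2 0.74, SE 0.25). Tnfrsf14, the receptor HVEM that binds BTLA, stood at 5.01 ± 2.66 and 19.7 ± 3.03. These values rest on few reads, as 1 read is worth 0.856 to 1.28 normalized counts across the libraries. Its log2 difference of 1.90 was 1.34 with a pseudocount of 5 and 2.02 with a pseudocount of 0.5. In Cd276, Lgals9 and Tnfrsf14 each knockout library lay above every control, beside 5.70% of all tested genes. Cd47, the signal that restrains phagocytosis, overlapped at 11659 ± 4805 and 10161 ± 2336, and so did the VISTA gene 4632428N05Rik, at 54.5 in vector control 1 but 1222 and 1278 in the other controls, against 400, 123 and 403 in knockout cells. Pdcd1lg2, the PD-L2 gene, and Cd80 and Cd86 were not among the listed genes. Limma, edgeR and DESeq2 called 0 of the 8. By limma, 2 of the 8 had an unadjusted p under 0.05, beside 505 of all 12149 tested genes.

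Among tested ligands that natural killer cells read through other receptors, the groups overlapped with 1 exception in 9 activating and adhesion ligands and 0 in 6 inhibitory ones, beside 11.2% of all tested genes. Of the 9 activating and adhesion ligands, 7 had a log2 difference above 0 (median 0.20). The DNAM-1 ligands Pvr and Pvrl2 stood at 1477 ± 196 and 1667 ± 136, and at 1637 ± 793 and 2384 ± 369, the latter with 723 in vector control 1. The integrin ligand Vcam1 was the exception, at 85.6, 71.6 and 77.7 among controls and 334, 142 and 98.5 for knockouts 1 to 3. Its mean rests largely on knockout 1. Pvrl3, left untested for its low mean, stood at 23.4, 6.77 and 5.25 among controls and 3.42, 3.18 and 1.28 for knockouts 1 to 3. Each knockout value lay below every control, as in 5.48% of all tested genes. These values rest on few reads, since 1 read is worth 0.856 to 1.28 normalized counts across the libraries. Of the 6 tested inhibitory ligands, 5 had a log2 difference above 0 (median 0.19, and -0.01 without vector control 1, when 3 did). The median was 0.37 without vector control 2 or 3 and 0.12 without knockout 1. B2m, the light chain of class I molecules, stood at 5840 ± 1532 and 7514 ± 938, H2-D1 at 5326 ± 1178 and 6636 ± 907 and H2-K1 at 2981 ± 785 and 3357 ± 606. Across both lists the 3 tools called 0 genes, and 0 had an unadjusted p under 0.05 by limma.

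**Figure D5:**
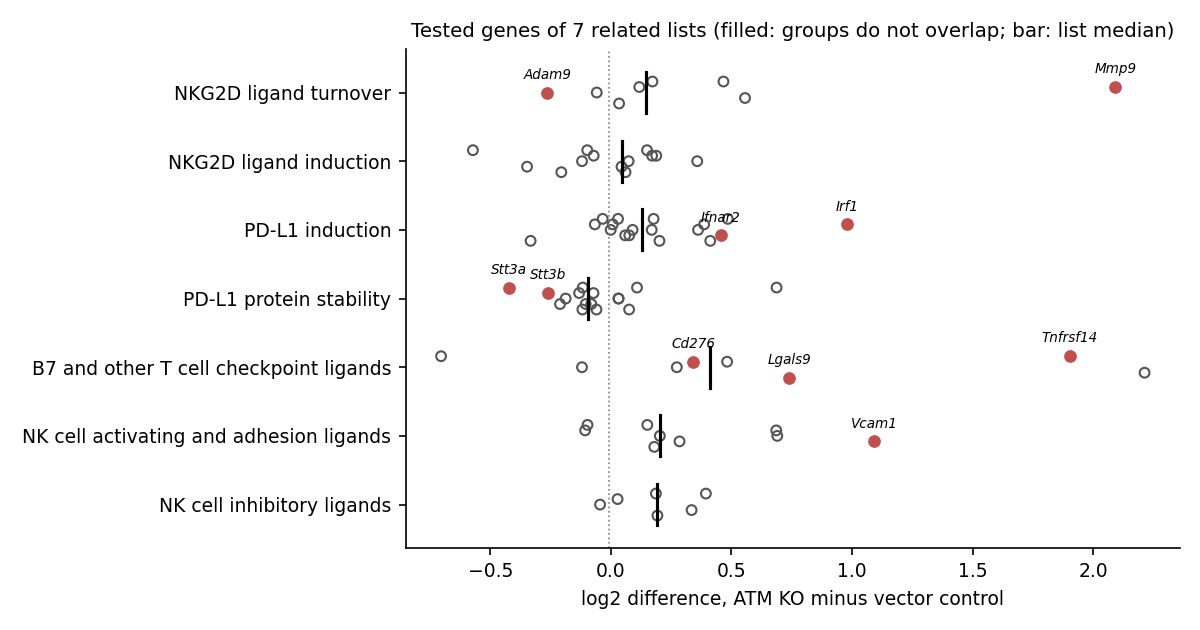
Log2 difference, ATM KO minus vector control (x axis), of each tested gene in 7 lists around the NKG2D ligands and PD-L1 (y axis). Filled red points are genes whose groups do not overlap, open points overlap, black bars are list medians and the dotted line is the median of all tested genes (-0.01). List medians lie between -0.09 and 0.41, and Mmp9, Irf1, Tnfrsf14 and Vcam1 lie farthest to the right among the genes without overlap. Tnfrsf14 has few reads (means of 5.01 in vector control and 19.7 in ATM KO).

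Chromosomal neighbours of Ulbp1 had small differences. Of 9 listed genes that start within 500 kb of it, among them Lrp11, Nup43 and Lats1, 2 had a log2 difference above 0 and 7 below it, over a range from -0.40 to 0.07, and in 0 were the groups without overlap, beside 11.2% of all tested genes. Around Cd274, 12 listed genes had log2 differences from -0.35 to 0.21, 3 of them above 0. Of the 12, 2 were without overlap, beside the same 11.2% of all tested genes. Plgrkt, whose start lies next to that of Cd274, stood at 585 ± 141 and 507 ± 102. Ak3, an adenylate kinase gene, was higher in each knockout library (2737 ± 47.4 and 3174 ± 258) and C030046E11Rik was lower in every one (2268 ± 105 and 1781 ± 31.2).

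The genes most like Ulbp1 over the 6 libraries were Map3k14, Vasp and Trnp1, with Pearson r of 0.998, 0.996 and 0.993 on the log2 scale, the highest of 10744 coding genes compared. Map3k14, which encodes the NF-kappa-B inducing kinase NIK, stood at 643, 700 and 716 among controls and 908, 953 and 919 for knockouts 1 to 3. Vasp, an actin regulator, stood at 5503 ± 98.7 and 6272 ± 97.3, and Trnp1 at 21.0 ± 2.33 and 43.0 ± 6.03. For Cd274 they were Rhd, Ctsw and Ptpn18, with r of 0.988, 0.987 and 0.985, and all 3 share the low value in knockout 3. Ctsw, which encodes cathepsin W, stood at 174, 222 and 187 among controls and 664, 421 and 170 for knockouts 1 to 3. For H60b, added after its values were seen, Nudcd3, Acer3 and Fam149a came first (r of 0.997, 0.994 and 0.993). Among the 4 genes themselves, r was 0.90 between H60b and H60c, 0.63 between Ulbp1 and Cd274 and -0.63 between Ulbp1 and H60b. All these values come from the same 6 libraries, of which vector control 1 stands apart, and are descriptions of likeness only. Because Ulbp1 was chosen for an even rise, genes most like it also separate the groups. The r values with Ulbp1 therefore follow in part from that choice.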

How the data were processed

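RNA-seq was made from 3 vector control and 3 ATM KO libraries of 4T1 cells, grouped by their titles. Per the submitters' processing notes, the tools were DESeq2, HTSeq, SAMtools, STAR, cutadapt and Trim Galore and the builds mm9 and GRCm38, with no roles given. Each deposited file holds 1 signal value per gene, a read count divided by a library factor, as the values show: all of them (100%) are whole multiples of 1 step within 0.01 reads, which gives back the reads. The sources used here do not give whether counting used strand or how the listed genes were picked. Of 13405 gene IDs, 13249 (98.8%) are in GENCODE M21, which gave coordinates and exon lengths.

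Genes with a mean of at least 10 were compared on log2(value + 1) with limma 3.58.1 in R 4.3.3 (trend, 2-sided, Benjamini-Hochberg over all 12149 genes, threshold 0.05), and recovered reads with edgeR 4.0.16 and DESeq2 1.42.0. The scripts were tested on simulated data. Other pseudocounts (0.5 and 5), filters, scalings, a replicate block and leaving out each library were tried. Members and gene lists were chosen with earlier results of these data known. Named genes are the members, Atm, up to 4 listed genes of highest mean per list with the largest rise and fall without overlap, genes starting within 500 kb of Ulbp1 or Cd274, and the 3 most alike in pattern. Other list genes named (Trp53, E2f1, Adam17, March4, March9, Ifnar2, Jak2, Lgals9, Pvrl3) were chosen after their values were seen. One gene of the PD-L1 induction list is not reported here. Cdh1 stands in more than 1 of the 12 lists.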

Additional observations from a re-analysis of the deposited data

How the results depend on the processing

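The number of genes called over all tested genes was 0 by limma at every pseudocount, filter and scaling tried, with each library left out (0 to 0), and 0 by edgeR, but 84 by DESeq2 on the recovered reads, and the cause was not tested. Leaving out vector control 1 raised the genes at an unadjusted p under 0.05 from 505 to 1778. The log2 differences of Ulbp1, H60b, H60c and Cd274 kept their direction under all 13 alternatives run for each, with ranges over the left-out libraries of 1.01 to 1.15, -1.34 to -0.47, -1.53 to -0.21 and 0.22 to 0.56. For Ulbp1 the narrow range follows in part from its choice for an even rise. Of the 71 other named genes tested, 28 changed direction under at least 1 alternative, as did the medians of 5 of 10 gene lists. The titles number the libraries without saying whether equal numbers are pairs. The deviations of same-numbered libraries from their group means correlated at -0.02, -0.58 and 0.53, with no shared sign. With vector controls 2 and 3 nearly alike, these values do not exclude pairing. With the replicate block limma called 0 genes and the log2 difference of Ulbp1 was 1.09. Depth limits Cd274 (28 to 68 reads) and H60c (3 to 56 reads).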
